A study of Mus musculus with 11 samples.

Results

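Phase II conjugation enzymes attach a polar group to a drug, toxin, hormone or bile pigment so that it can leave the liver in bile or urine. The genes described here are those whose symbols name a glutathione S-transferase (Gst), a microsomal glutathione S-transferase (Mgst), a UDP-glucuronosyltransferase (Ugt) or a sulfotransferase (Sult). They were taken by symbol pattern, without regard to how they changed, and the probe table held 49 such symbols of 31508 in all. A gene was measured where at least 1 of its probes had a detection p under 0.05 on at least 3 of the 11 arrays, and its brightest probe then stood for it. That left 36 of the 49 genes, among 12512 genes tested. The 13 genes below the filter were Gsto2, Gstm3, Sult1b1, Sult1c1, Sult1e1, Sult2a1, Sult2b1, Sult3a1, Sult4a1, Ugt2a1, Ugt2a2, Ugt2b5 and Ugt8. A gene below the filter was not shown to be silent, since probes of the liver genes Fgb and Tat were also below it.

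Expression was read from livers of female C57Bl/6 mice, each on its own Illumina BeadChip array of mouse probes. Of the mice, 4 were killed 6 h after an injection of 0.5 mg/g 5'-adenosine monophosphate (5'-AMP; group name AIHM), 4 were killed 12 h after the same dose (group name RF, sample titles Rev Flip), and 3 were controls given vehicle. The labels give no age for the mice, no kill time for the controls and no meaning for RF or Rev Flip, so time may not be all that separates both 5'-AMP groups. Hypometabolism is the word the series title uses for the state that 5'-AMP induces.

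Glutathione transferases join glutathione to electrophiles; the cytosolic enzymes fall into classes named alpha, mu, pi, theta, omega, zeta and so on, and the microsomal ones are a separate membrane family. UDP-glucuronosyltransferases sit in the endoplasmic reticulum and transfer glucuronic acid from UDP-glucuronic acid to bilirubin, steroids and phenols. Cytosolic sulfotransferases transfer sulfate from the donor PAPS to phenols, steroids and bile acids. Many of these genes are known targets of the xenobiotic receptors CAR, PXR and AHR and of the oxidative stress factor NRF2.

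Values are normalised log2 signals per array, and changes are log2 fold changes with their standard errors from 1 limma fit over all 11 arrays (n = 4 at 6 h, n = 4 at 12 h, n = 3 controls). A call means a p under 0.05 after Benjamini-Hochberg adjustment over all genes tested. The mean raw signal per array ran from 458 to 635 at 6 h, 412 to 494 at 12 h and 422 to 542 in controls (precision is limited by how few arrays there are). On the first principal component the 6 h arrays 1 and 3 (20.3 and 24.5) lay with the 12 h arrays (10.3 to 18.1), whereas the 6 h arrays 2 and 4 (-11.8 and -17.4) lay nearer to the controls (-26.6 to -25.0). The 6 h arrays 2 and 4 also had the highest mean signals. Atf3, a stress-induced transcription factor whose probe was detected on no control array, was at least 15.03-fold higher at 6 h and at least 52.1-fold higher at 12 h than in controls (adjusted p = 2.492e-09 and 4.150e-11). Such a bound sets the mean of the brighter group over the detection limit of the dimmer group's arrays, or over an array's reading where that was higher. Atf3 passed the detection filter only through the arrays after 5'-AMP, where it is high. Its p-values are thus on a gene selected by those groups. In whole liver RNA, fewer cells of a type and less RNA per cell cannot be told apart. The 5 measured hepatocyte markers summed to 87749 to 109685 linear signal units at 6 h, 104741 to 113061 at 12 h and 98599 to 110209 in controls. None of the 5 was called. At 6 h their changes were -0.47 for Serpina1a, -0.24 for Ttr (whose arrays did not overlap the controls), -0.15 for Alb1, 0.04 for Apoa1 and 0.35 for Cps1, with a median of -0.15, and at 12 h the median was 0.11. The remaining 3 of the 8 hepatocyte markers (Tf, Fgb and Tat) were below the filter. The 5 measured erythroid markers summed to 56246 to 70727 at 6 h, 50560 to 61472 at 12 h and 26345 to 51282 in controls, so the 6 h and control arrays did not overlap. The summed markers of neutrophils (2 of 7 measured) were above the controls at both times. Those of pancreatic acinar cells (3 of 7) were above them at 6 h. So was the stellate cell sum (4 of 7), in which Reln had a change of 0.43 at 6 h while Lrat, Acta2 and Des had -0.58, -0.24 and -0.18. At 12 h those of periportal hepatocytes (7 of 8) ran from 78213 to 88242, against 73007 to 77647 in controls. At that time those of Kupffer cells (7 of 8), sinusoidal endothelium (6 of 7), stellate cells, T and NK cells (2 of 6) and B cells (1 of 4) lay below all controls. A sum follows its brightest markers. Of the 6 endothelial markers 5 had negative estimates at 12 h, and none was called. Only Clec4g, the brightest of them (-0.19), did not overlap the controls, and Pecam1 had 0.24. All 7 Kupffer cell markers had negative estimates at 12 h, and none was called. The summed pericentral hepatocyte (7 of 8) and cholangiocyte (4 of 6) markers overlapped the controls at both times. The part of these shifts in the results below was not tested.

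The first question was whether conjugation enzyme transcripts differed from control 6 h and 12 h after 5'-AMP. None of the 36 genes was called at either time. At 6 h 0 of 36 passed, where 1.13% of all genes did, and the smallest adjusted p among the 36 was 0.127. At 12 h 0 of 36 passed, where 3.23% of all genes did, and the smallest adjusted p was 0.117. At an unadjusted p under 0.05 there were 6 of the 36 genes at 6 h, beside 16.7% of all genes, and 8 of the 36 at 12 h, beside 17.7% of all genes. The arrays of the groups did not overlap for 3 of the 36 genes at 6 h (8.33%, against 13.9% of all genes) and for 5 of the 36 at 12 h (13.9%, against 20.7% of all genes).

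The changes were small for most of these genes. The median change was 0.12 at 6 h and 0.04 at 12 h, beside -0.02 and -0.04 over all genes tested. The median size of the change regardless of sign was 0.154 at 6 h and 0.172 at 12 h, beside 0.179 over all genes at both times. The 95% interval of the change lay within 1 log2 unit of 0 on both sides for 27 of the 36 genes at 6 h and for 26 at 12 h. It lay within 0.5 of 0 for 16 and 19 genes. For the brightest probes of these genes larger changes were outside the interval, and for the others the arrays leave room for them. The intervals do not cover dimmer probes of the same symbols. Those of Ugt1a6a, Ugt1a9 and Ugt1a10 had 12 h estimates of 0.55 to 1.04, while their brightest probes had intervals within 0.5 of 0.

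**Figure D1:**
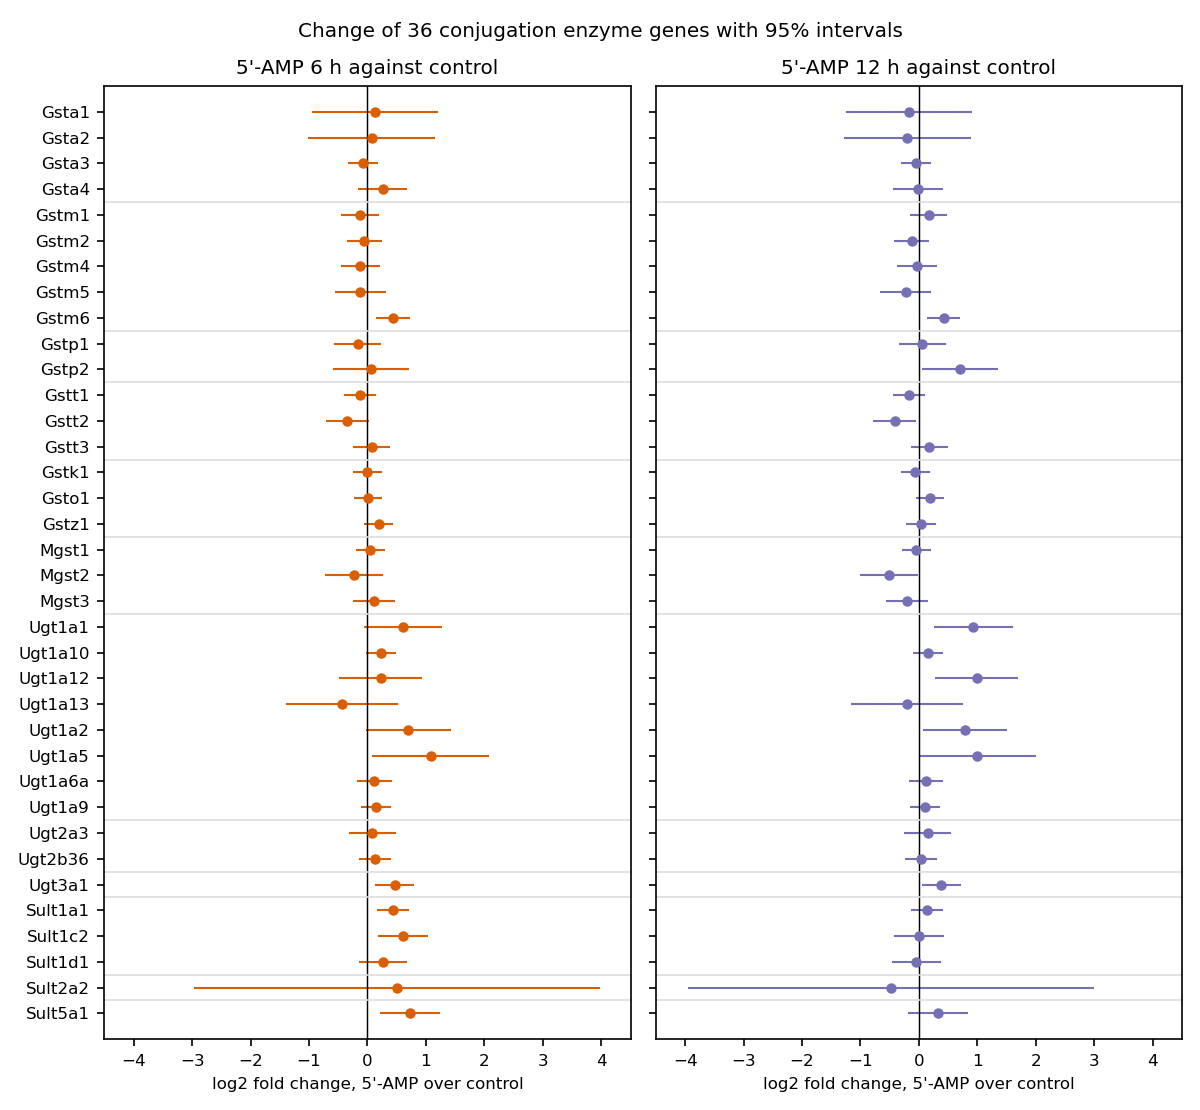
Log2 fold change (x axis) of each of the 36 measured conjugation enzyme genes (rows, grouped by family) at 6 h and at 12 h after 5'-AMP over control. Points are estimates and bars are 95% intervals from the limma fit (4 arrays at each time, 3 control arrays). Most points lie near 0, the largest positive estimates are those of Ugt1a5 at 6 h (1.08) and 12 h (1.0), and the bar of Sult2a2 is the widest.

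Most glucuronosyltransferases had estimates above 0. Of 11 Ugt genes, 10 had a positive estimate at 6 h and 10 at 12 h, with medians of 0.23 and 0.16, and none was called. Of all 12512 genes, 5928 had a positive estimate at 6 h and 5452 at 12 h. Both times are set against the same 3 control arrays, so their counts are not independent. Within them the 8 measured Ugt1 symbols had medians of 0.23 at 6 h and 0.47 at 12 h, and 7 of 8 were positive at each time. The Ugt1 genes form 1 complex locus in which each enzyme has its own first exon and all share their last exons. The 8 symbols match 6 genes of the RefSeq annotation, all with the same annotated end, because the older names Ugt1a12 and Ugt1a13 are now synonyms of Ugt1a9 and Ugt1a10. Which exon each probe reads was not tested, so these symbols are not independent measurements of separate genes.

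Because the Ugt1 genes start at separate first exons, the promoter of each is its own. Those of the 3 genes with estimates near 0.8 or above at 12 h under their current names are shown (RefSeq, GRCm38.p6, 250 bases before to 50 after the annotated start, all on the plus strand). Ugt1a1 is at chr1:88211709-88212008, Ugt1a2 at chr1:88200361-88200660 and Ugt1a5 at chr1:88165762-88166061. Capitals mark the core of the xenobiotic response element, to which AHR binds.
Ugt1a1: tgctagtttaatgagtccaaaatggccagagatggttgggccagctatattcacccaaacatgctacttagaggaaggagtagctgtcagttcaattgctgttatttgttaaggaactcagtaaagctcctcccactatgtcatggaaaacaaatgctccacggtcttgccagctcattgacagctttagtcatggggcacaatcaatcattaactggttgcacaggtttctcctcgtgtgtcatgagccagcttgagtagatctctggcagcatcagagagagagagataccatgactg
Ugt1a2: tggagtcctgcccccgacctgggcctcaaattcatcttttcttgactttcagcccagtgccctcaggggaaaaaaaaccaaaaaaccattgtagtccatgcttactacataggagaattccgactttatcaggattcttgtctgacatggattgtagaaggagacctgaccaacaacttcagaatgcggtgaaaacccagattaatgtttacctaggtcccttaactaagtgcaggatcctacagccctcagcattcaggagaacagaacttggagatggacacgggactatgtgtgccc
Ugt1a5: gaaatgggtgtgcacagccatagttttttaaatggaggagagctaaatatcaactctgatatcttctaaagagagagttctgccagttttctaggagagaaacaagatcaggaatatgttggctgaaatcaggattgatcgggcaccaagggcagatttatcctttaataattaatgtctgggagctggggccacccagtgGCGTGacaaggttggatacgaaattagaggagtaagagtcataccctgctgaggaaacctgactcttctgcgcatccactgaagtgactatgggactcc
In gapped alignments 50.1% to 52.7% of positions were identical pair by pair, with 100 to 106 gap positions and 61 to 73 mismatches. Pairs of unrelated promoters were not aligned, so whether this exceeds their identity was not tested. The core GCGTG stood in that of Ugt1a5 alone among these 3, and in 32.4% of all 32851 promoter windows. A match is a description of the letters only.

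Ugt1a1, the enzyme that glucuronidates bilirubin, read 11.14, 9.79, 11.05 and 9.94 at 6 h, 11.02, 10.77, 10.72 and 10.69 at 12 h, and 9.94, 10.16 and 9.51 in controls. Every 12 h array was above every control array, while at 6 h arrays 1 and 3 were high and arrays 2 and 4 lay among the controls. The change was 0.61 ± 0.31 at 6 h (adjusted p = 0.347) and 0.93 ± 0.31 at 12 h (adjusted p = 0.137), so neither was called. The 95% interval at 12 h ran from 0.26 to 1.60. When only the 12 h and control arrays were fitted, the same estimate had an adjusted p of 0.0131. Within a chip the 12 h array was above the control array by 0.75 and 0.62 on the 2 chips that held both, and the 6 h arrays differed from the control array by -0.00, 0.89 and 0.95 on 3 chips.

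Ugt1a5 read 9.79, 7.60, 9.43 and 8.39 at 6 h, 8.82, 8.59, 9.06 and 8.39 at 12 h, and 8.38, 7.80 and 6.99 in controls. The 6 h arrays 1 and 3 were again the highest of all, and the lowest 12 h array was above the highest control array by a small margin. The change was 1.08 ± 0.46 at 6 h (adjusted p = 0.258) and 1.0 ± 0.46 at 12 h (adjusted p = 0.283). Without control array 3 the estimates were 0.71 and 0.63. Within a chip the 12 h difference from control was 0.01 and 0.80.

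Ugt1a2 read 8.58, 7.33, 8.57 and 7.85 at 6 h, 8.17, 7.98, 8.62 and 7.92 at 12 h, and 8.04, 7.22 and 6.89 in controls. The groups overlapped at both times, and the same 2 arrays were high at 6 h. The change was 0.70 ± 0.33 at 6 h (adjusted p = 0.315) and 0.79 ± 0.33 at 12 h (adjusted p = 0.239).

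The probe listed as Ugt1a12 read 8.01, 7.55, 8.31 and 7.99 at 6 h, 8.69, 8.75, 8.45 and 9.01 at 12 h, and 8.0, 8.46 and 6.75 in controls. The third control was far below the other two. The change was 0.23 ± 0.33 at 6 h (adjusted p = 0.775) and 0.99 ± 0.33 at 12 h (adjusted p = 0.137). Without that control array the estimates were -0.27 at 6 h and 0.49 at 12 h.

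The other 4 Ugt1 symbols had estimates between -0.44 and 0.23 at 6 h and between -0.20 and 0.16 at 12 h. The lowest were those of Ugt1a13, -0.44 ± 0.44 at 6 h and -0.20 ± 0.44 at 12 h. At 6 h Ugt1a13 read lower on arrays 1 and 3 than on arrays 2 and 4, the opposite of Ugt1a1. Its probe was detected on 2 of the 4 arrays at 6 h. For the other 3, Ugt1a6a, Ugt1a9 and Ugt1a10, the brightest probe and the dimmer probes of the same symbol differed. In the fit of all kept probes the brightest Ugt1a6a probe had a change of 0.13 ± 0.14 at 12 h, and the other 2 had 1.04 ± 0.34 and 1.01 ± 0.33 (adjusted p = 0.142 and 0.143). The second Ugt1a9 probe had 0.95 ± 0.36 (adjusted p = 0.199) beside 0.10 ± 0.12 for the brightest. The second Ugt1a10 probe had 0.55 ± 0.22 (adjusted p = 0.227) beside 0.16 ± 0.12 for the brightest. On the brightest Ugt1a10 probe all 12 h arrays were above all controls by a small margin (lowest 12 h array 14.77, highest control 14.74). None of these probes was called, and each of the dimmer ones read lower on the 6 h arrays 2 and 4 than on arrays 1 and 3, as Ugt1a1 did. The brightest probe of Ugt1a9 read 14.95, 14.71, 15.07 and 14.85 at 6 h, 14.87, 14.92, 14.90 and 14.74 at 12 h, and 14.79, 14.72 and 14.74 in controls. These values are close together, and the groups overlap.

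**Figure D2:**
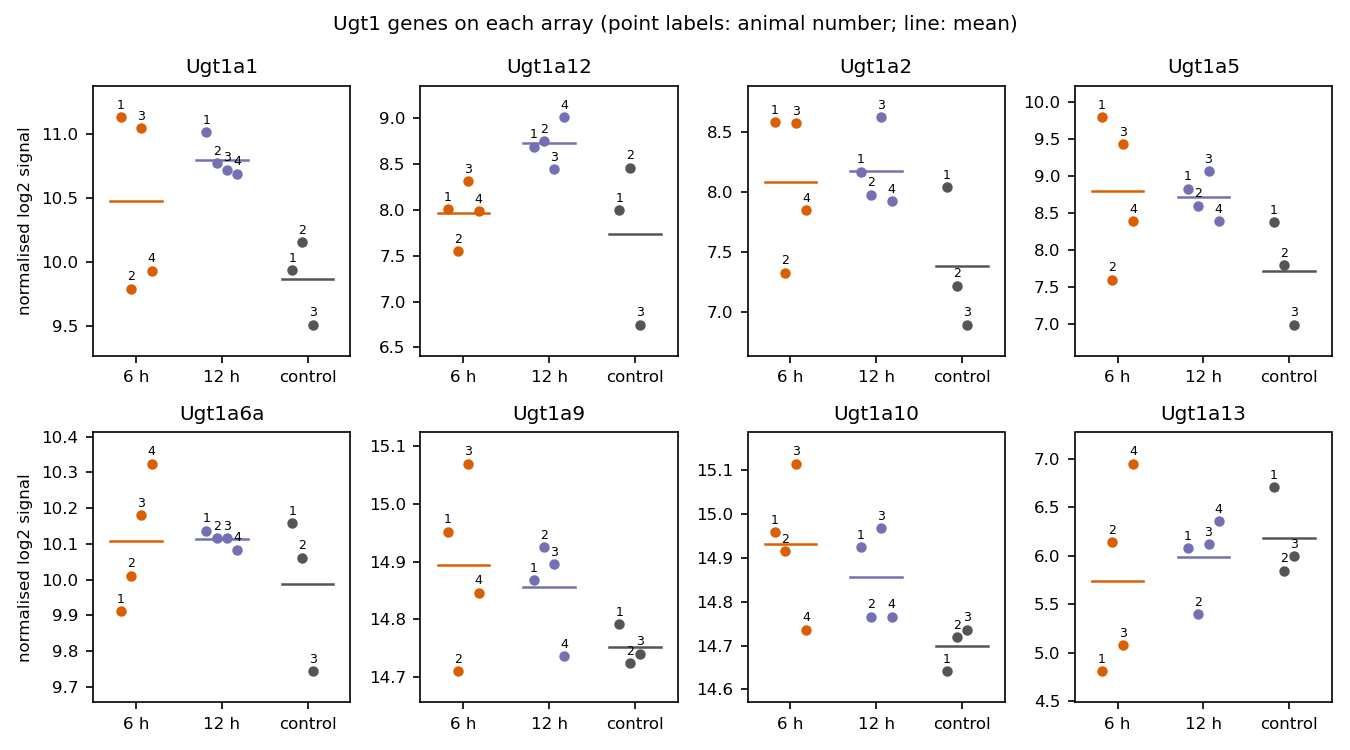
Normalised log2 signal (y axis, scaled separately for each gene) of the brightest probe of the 8 measured Ugt1 symbols on every array. Points are arrays with the mouse number of the labels, lines are group means, and the groups are 6 h (n = 4), 12 h (n = 4) and control (n = 3). In Ugt1a1, Ugt1a2 and Ugt1a5 the 6 h arrays 1 and 3 lie above arrays 2 and 4, and in Ugt1a1, Ugt1a5 and Ugt1a10 all 12 h arrays lie above all controls.

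Outside the Ugt1 locus, Ugt3a1 belongs to a family whose human members use sugar donors other than UDP-glucuronic acid. It read 12.36, 12.02, 12.49 and 12.07 at 6 h, 12.25, 12.35, 12.03 and 11.96 at 12 h, and 11.66, 11.97 and 11.67 in controls. All 6 h arrays were above all controls, and 1 of the 12 h arrays was level with the highest control. The change was 0.47 ± 0.15 at 6 h (adjusted p = 0.170) and 0.38 ± 0.15 at 12 h (adjusted p = 0.219). The 2 measured Ugt2 genes, Ugt2a3 and Ugt2b36, changed by 0.08 ± 0.18 and 0.12 ± 0.13 at 6 h and by 0.15 ± 0.18 and 0.04 ± 0.13 at 12 h. The Ugt2 family acts on steroids and bile acids among other substrates.

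The 5 sulfotransferases all had positive estimates at 6 h (5928 of all 12512 genes did), with a median of 0.51, and a median of 0.00 at 12 h. None was called at either time. Sult1a1, a phenol sulfotransferase, read 13.81, 13.54, 13.88 and 13.83 at 6 h, 13.47, 13.61, 13.41 and 13.40 at 12 h, and 13.49, 13.29 and 13.21 in controls. Every 6 h array was above every control, and the 12 h arrays overlapped the controls. The change was 0.43 ± 0.13 at 6 h (adjusted p = 0.127) and 0.14 ± 0.13 at 12 h (adjusted p = 0.600). With a trended and robust variance the 6 h estimate had an adjusted p of 0.0442. Within a chip the 6 h difference from control was 0.34, 0.58 and 0.47.

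Sult1c2 read 8.32, 8.62, 8.77 and 7.96 at 6 h, 7.79, 7.47, 8.08 and 7.90 at 12 h, and 7.78, 7.67 and 7.97 in controls. Of the 6 h arrays 3 were above all controls and array 4 was level with the highest control. The change was 0.61 ± 0.20 at 6 h (adjusted p = 0.164) and 0.00 ± 0.20 at 12 h (adjusted p = 0.997). Sult5a1 changed by 0.73 ± 0.24 at 6 h (adjusted p = 0.162) and by 0.33 ± 0.24 at 12 h (adjusted p = 0.495), and Sult1d1, which sulfates catecholamines in mice, by 0.26 ± 0.19 and -0.04 ± 0.19.

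Sult2a2 belongs to the family that sulfates hydroxysteroids and bile acids. It read 10.02, 5.80, 12.19 and 7.23 at 6 h, 7.59, 6.55, 10.46 and 6.70 at 12 h, and 9.60, 4.81 and 10.50 in controls. In every group array 3 was the highest and array 2 the lowest, and the spread within each group was far wider than any distance between group means. The change was 0.51 ± 1.60 at 6 h and -0.48 ± 1.60 at 12 h, with a 95% interval at 6 h from -2.97 to 3.98. A change of several fold in either direction was thus not detectable with these arrays.

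The glutathione transferases had estimates on both sides of 0. Of the 20 measured Gst and Mgst genes, 10 were positive and 10 negative at 6 h (median 0.01), and 7 were positive and 13 negative at 12 h (median -0.05). None was called. In the mu class 1 of 5 genes, Gstm6, stood apart from the controls on every array of both times. It read 11.63, 11.44, 11.58 and 11.30 at 6 h, 11.50, 11.41, 11.57 and 11.42 at 12 h, and 10.98, 11.29 and 10.89 in controls. The margin over the highest control was narrow. The change was 0.43 ± 0.13 at 6 h (adjusted p = 0.137) and 0.42 ± 0.13 at 12 h (adjusted p = 0.117), and in the fit of all kept probes its other 2 probes had 0.60 ± 0.14 and 0.56 ± 0.15 at 6 h and 0.44 ± 0.14 and 0.58 ± 0.15 at 12 h. The lowest adjusted p among these was 0.0721, so no Gstm6 probe was called. Within a chip the 12 h difference from control was 0.44 and 0.13. The other mu class genes, Gstm1, Gstm2, Gstm4 and Gstm5, had estimates from -0.13 to -0.05 at 6 h and from -0.23 to 0.17 at 12 h. The genes of this class are close copies of each other, and whether the probes tell them apart was not tested.

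**Figure D3:**
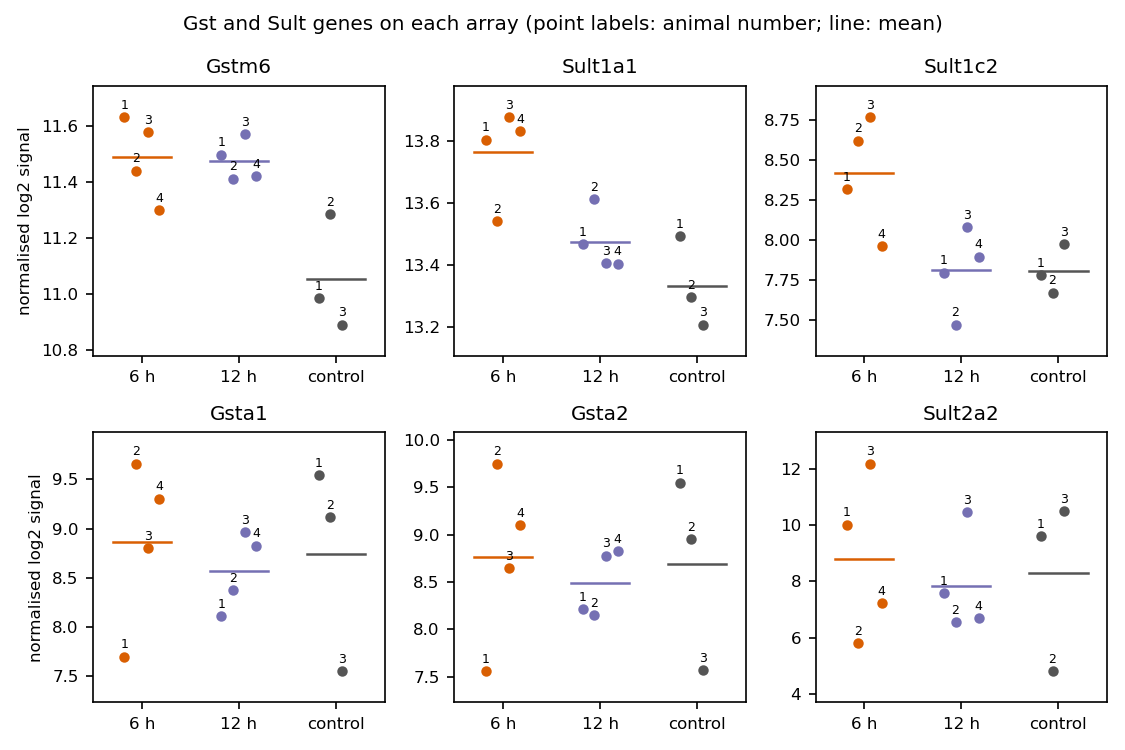
Normalised log2 signal (y axis, scaled separately for each gene) of 3 glutathione transferase and 3 sulfotransferase genes on every array. Points are arrays with the mouse number of the labels, lines are group means, and the groups are 6 h (n = 4), 12 h (n = 4) and control (n = 3). Gstm6 lies above the controls at both times and Sult1a1 at 6 h, while Gsta1, Gsta2 and Sult2a2 are spread widely within each group.

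In the alpha class, Gsta1 and Gsta2 are close paralogs. Gsta2 read 7.56, 9.75, 8.65 and 9.10 at 6 h, 8.21, 8.15, 8.78 and 8.83 at 12 h, and 9.55, 8.95 and 7.57 in controls. At 6 h array 1 was the lowest and array 2 the highest, and the controls covered nearly the same range. Its change was 0.07 ± 0.50 at 6 h and -0.20 ± 0.50 at 12 h. Gsta1 changed by 0.13 ± 0.49 at 6 h and -0.17 ± 0.49 at 12 h. It moved closely with Gsta2: across the 11 arrays the deviations of the 2 genes from their own means differed by 0.180 at most. Cross-hybridisation between the paralogs was not tested. The promoters of this pair are shown because the 2 genes moved together across arrays (RefSeq, GRCm38.p6, each from 250 bases before to 50 after an annotated start). Gsta1 is at chr9:78230419-78230718 on the plus strand and Gsta2 at chr9:78347096-78347395 on the minus strand. Capitals mark the GCGTG core.
Gsta1: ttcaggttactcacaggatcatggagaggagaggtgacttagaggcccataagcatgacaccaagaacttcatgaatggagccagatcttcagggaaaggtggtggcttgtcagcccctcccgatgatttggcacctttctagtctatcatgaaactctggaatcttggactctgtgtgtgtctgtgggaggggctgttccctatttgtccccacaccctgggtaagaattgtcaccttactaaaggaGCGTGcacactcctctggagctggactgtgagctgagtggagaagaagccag
Gsta2: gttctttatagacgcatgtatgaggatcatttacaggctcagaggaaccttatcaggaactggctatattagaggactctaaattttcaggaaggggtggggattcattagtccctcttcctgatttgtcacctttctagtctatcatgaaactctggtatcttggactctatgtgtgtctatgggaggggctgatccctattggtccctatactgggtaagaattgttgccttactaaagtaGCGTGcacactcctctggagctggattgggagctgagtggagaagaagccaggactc
The windows aligned with 75.3% identity, 238 identical positions, 46 mismatches and 32 gap positions, and both held the core within a few bases of the start that the window uses. For Gsta2 that start lies inside the annotated gene, which begins at chr9:78347192 on the minus strand. Gsta3 and Gsta4 had changes of -0.08 ± 0.12 and 0.26 ± 0.19 at 6 h and of -0.05 ± 0.12 and -0.02 ± 0.19 at 12 h. Gsta4 is known for conjugating products of lipid peroxidation.

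In the theta class Gstt2 had the largest negative estimate. It read 10.03, 10.48, 9.92 and 10.43 at 6 h, 10.07, 9.88, 10.25 and 10.36 at 12 h, and 10.69, 10.45 and 10.53 in controls. All 12 h arrays were below all controls. The change was -0.34 ± 0.17 at 6 h (adjusted p = 0.328) and -0.42 ± 0.17 at 12 h (adjusted p = 0.219). In the fit of all kept probes the second probe of Gstt2 had -0.69 ± 0.28 at 6 h (adjusted p = 0.257), in the same direction as the brightest probe, and 0.02 ± 0.28 at 12 h. Gstt1 and Gstt3 had estimates of -0.17 ± 0.13 and 0.18 ± 0.15 at 12 h.

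In the pi class Gstp2 read 7.26, 6.88, 6.37 and 6.21 at 6 h, 7.13, 7.17, 7.81 and 7.16 at 12 h, and 6.02, 6.66 and 7.18 in controls. Of the 12 h arrays 3 were level with the highest control, and array 3 stood above every other array. The change was 0.06 ± 0.30 at 6 h and 0.70 ± 0.30 at 12 h (adjusted p = 0.250), or 0.40 at 12 h without control array 1. That of its neighbour Gstp1 was 0.06 ± 0.19 at 12 h.

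Gsto1, an omega class enzyme that reduces dehydroascorbate, read 12.38, 12.22, 12.29 and 12.13 at 6 h, 12.36, 12.46, 12.43 and 12.46 at 12 h, and 12.37, 12.23 and 12.13 in controls. The 6 h and control arrays covered nearly the same values, and the 12 h change was 0.19 ± 0.11 (adjusted p = 0.408). Gstk1, the kappa enzyme of mitochondria and peroxisomes, changed by -0.00 ± 0.11 at 6 h and -0.06 ± 0.11 at 12 h. Gstz1, the maleylacetoacetate isomerase of tyrosine breakdown, changed by 0.19 ± 0.12 and 0.03 ± 0.12.

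Among the microsomal enzymes, Mgst1 changed by 0.05 ± 0.11 at 6 h and -0.05 ± 0.11 at 12 h, and Mgst3 by 0.12 ± 0.16 and -0.20 ± 0.16. Mgst2, which can make leukotriene C4, read 5.45, 5.34, 5.0 and 4.94 at 6 h, 4.88, 5.10, 4.79 and 4.85 at 12 h, and 4.74, 5.81 and 5.69 in controls. Its probe was detected on 1 of the 4 arrays at 6 h, on 0 of 4 at 12 h and on 2 of 3 in controls. The 12 h readings therefore set only an upper limit. The control mean lay 1.03-fold above that limit, but control array 1 read below every 12 h array, so a lower level at 12 h was not shown. The fitted change at 12 h was -0.51 ± 0.23 (adjusted p = 0.273). Without control array 1 the fitted change was -0.85 with an adjusted p of 0.0300. Mgst2 passed the detection filter on exactly 3 arrays, 2 of them controls. That p-value is thus on a gene selected largely by the control arrays where it is high.

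The second question was whether the genes differed between the times after 5'-AMP. In 12 h against 6 h, 0 of 36 genes were called, where 1.22% of all genes were, and the smallest adjusted p among the 36 was 0.134. At an unadjusted p under 0.05 there were 4 of the 36 genes, beside 15.5% of all genes, and the arrays did not overlap for 1 (2.78%, against 9.81% of all genes). The median change was -0.07, beside -0.01 over all genes. All 5 Sult genes had negative estimates (6526 of all 12512 genes did), with a median of -0.40. Sult1c2 had -0.61 ± 0.18 (adjusted p = 0.134), Sult1a1 had -0.29 ± 0.12 (adjusted p = 0.249), and both are set against the same 6 h arrays that entered the comparison with control. Ugt1a12 was the gene whose arrays did not overlap, with 0.76 ± 0.30 (adjusted p = 0.248). The fourth gene was Gstp2, with 0.64 ± 0.28 (adjusted p = 0.294). The 95% interval lay within 1 log2 unit of 0 for 28 of the 36 genes.

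The genes differed widely in how much arrays of the same group varied. Each mouse had 1 array, so differences between mice and measurement noise cannot be told apart. The SD within groups, pooled over the 3 groups, was 2.58 log2 units for Sult2a2, and 1 of the 12512 genes tested had a larger one. Those of Gsta1 and Gsta2 were 0.780 and 0.792, and 70 genes had one larger than that of Gsta1. In all 7 of the 36 genes were above the 95th percentile of all genes (0.499), namely Sult2a2, Gsta1, Gsta2, Ugt1a5, Ugt1a13, Ugt1a2 and Ugt1a12. At the other end Gsto1 (0.0917), Gstk1 (0.0983) and Mgst1 (0.0999) were below the 5th percentile (0.105), and 19 of the 36 were below the median of all genes (0.226). The percentiles were not adjusted for signal level. The 7 genes of wide spread had mean log2 signals of 5.95 to 8.72, and Gsto1, Gstk1 and Mgst1 had 12.3, 13.4 and 14.9. For Gsto1 the 95% interval of the 12 h change ran from -0.05 to 0.43, and for Sult2a2 from -3.95 to 3.0.

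**Figure D4:**
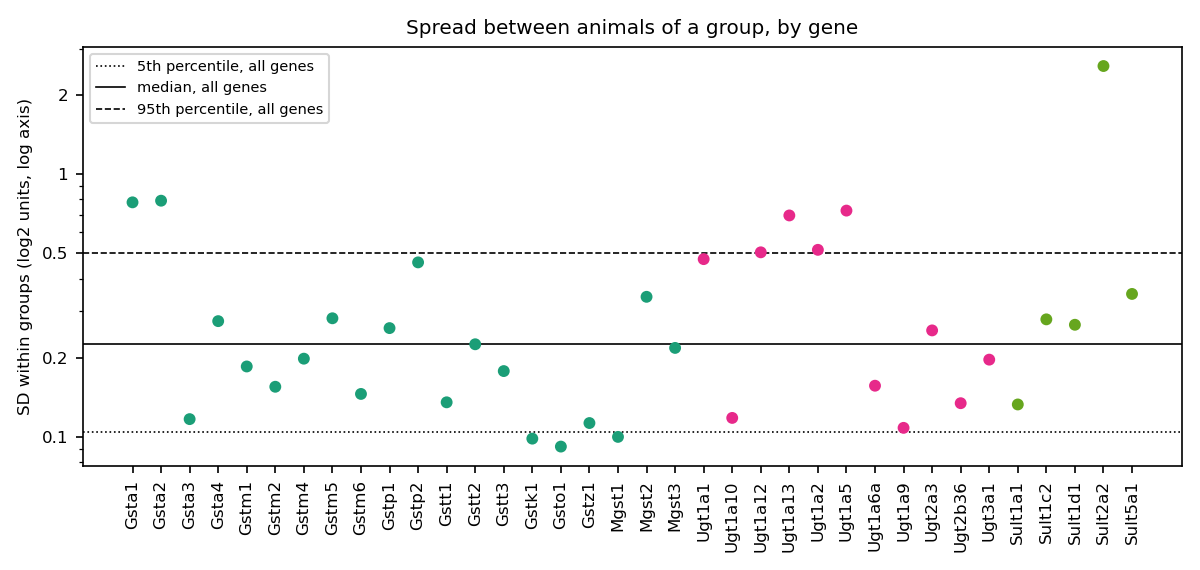
SD within groups (y axis, log2 units on a log axis) of each of the 36 genes, pooled over the 3 groups of the limma fit. Points are genes coloured by class (Gst and Mgst dark green, Ugt pink, Sult light green), and the lines are the 5th percentile, median and 95th percentile of all 12512 genes tested. Sult2a2 lies highest at 2.58, and Gsto1 lies lowest at 0.0917.

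The genes around the conjugation reaction were counted by list. Of the genes that supply glutathione, UDP-glucuronic acid, PAPS and S-adenosylmethionine, 17 of 18 were measured, and 1 rose at 12 h (3.23% of all genes were called) while none was called at 6 h (1.13% of all genes). The one that rose was Chac1, listed under the older name 1810008K03Rik, an enzyme that breaks glutathione down rather than supplying it. Chac1 read 8.69, 8.63, 8.52 and 9.17 at 6 h, 9.53, 9.36, 9.23 and 10.04 at 12 h, and 6.91, 7.5 and 8.21 in controls. All arrays after 5'-AMP were above all controls. It rose by 2.0 ± 0.28 at 12 h (adjusted p = 0.00147), and at 6 h the change was 1.21 ± 0.28 (adjusted p = 0.0684). Without control array 3 the 6 h change was 1.55 with an adjusted p of 0.0211. Gclc, the catalytic subunit of glutathione synthesis, changed by -0.05 ± 0.48 at 6 h and 0.21 ± 0.48 at 12 h. Papss2, a PAPS synthase, changed by 0.55 ± 0.22 at 6 h (adjusted p = 0.237) and 0.29 ± 0.22 at 12 h (adjusted p = 0.528). Ugdh, which makes UDP-glucuronic acid, was below the filter. The list's medians were 0.12 at 6 h and 0.18 at 12 h.

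Of the regulators of these enzymes, 14 of 17 were measured and 1 was called higher at 12 h, beside 3.23% of all genes, with medians of 0.01 at 6 h and 0.02 at 12 h. This was Maff, a small MAF protein that pairs with NRF2 on antioxidant response elements. Maff read 5.25, 4.90, 5.64 and 5.20 at 6 h, 6.33, 6.12, 6.20 and 6.73 at 12 h, and 5.31, 4.79 and 4.77 in controls. All 12 h arrays were above every other array. Its probe was detected on 1 of 4 arrays at 6 h, on 4 of 4 at 12 h and on 0 of 3 in controls. It thus passed the detection filter only through the 12 h arrays, where it is high, and its calls are on a gene selected by that group. Maff was at least 1.95-fold higher at 12 h than in controls, with a fitted change of 1.39 ± 0.20 (adjusted p = 0.0020), and with the chip as a fixed block the change was 1.36 with an adjusted p of 0.0545. The change at 6 h was 0.29 ± 0.20 (adjusted p = 0.505). In 12 h against 6 h it was 1.10 ± 0.19 (adjusted p = 0.0159), and this call was lost without 12 h array 1 (adjusted p = 0.0533), without 12 h array 4 (0.0599) and without 6 h array 2 (0.0558). Nfe2l2, which encodes NRF2, changed by 0.13 and 0.18 at 6 h and 12 h, and Nr1i3, which encodes CAR, by -0.09 and -0.16. Neither was called, and Ahr was below the filter.

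Of the enzymes that remove conjugates or hydrolyse, 10 of 11 were measured and 1 fell at 6 h, beside 1.13% of all genes, with medians of -0.02 at 6 h and -0.01 at 12 h. This was Sts, the steroid sulfatase, which takes off the sulfate that sulfotransferases add. Sts read 6.21, 6.24, 6.02 and 6.16 at 6 h, 6.46, 6.51, 6.66 and 6.82 at 12 h, and 6.79, 6.68 and 7.11 in controls. All 6 h arrays were below all others. The change at 6 h was -0.70 ± 0.14 (adjusted p = 0.0314) and at 12 h -0.25 ± 0.14 (adjusted p = 0.373). The 6 h call was lost when any of 6 arrays was left out: 12 h array 2 (adjusted p = 0.0527) or 3 (0.0508), 6 h array 1 (0.0626) or 3 (0.0836), and control array 1 (0.0947) or 3 (0.140).

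No gene of the remaining lists was called at either time. Of the other conjugating enzymes (methyl, acetyl, glycine and acyl transferases), 16 of 18 were measured, with medians of 0.03 at 6 h and -0.03 at 12 h. The marker targets of NRF2, AHR, CAR and PXR outside the conjugation families had 12 of 16 measured, with medians of 0.19 and 0.11. Carriers that export conjugates or take up their substrates had 12 of 16 measured, with medians of 0.08 and 0.13. At 6 h the lists held 3, 0 and 2 genes at an unadjusted p under 0.05, and at 12 h 4, 0 and 0, in the same order, beside 16.7% of all genes at 6 h and 17.7% at 12 h.

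Across the conjugation genes, promoter windows were found for 33 of the 36 symbols, 38 windows in all. On either strand the antioxidant response element core TGACNNNGC was in 3 of the 38 windows (Gsta3, Gstm5 and Mgst1) and in 12.4% of all 32851. The AP-1 site TGANTCA, which can overlap the antioxidant core, was in 5 of the 38 (Gstm5, Gstp1, Gstp2, Mgst2 and Ugt1a6a) and in 7.81% of all. The xenobiotic response element core GCGTG was in 9 of the 38, of 8 genes, and in 32.4% of all. The E-box CACGTG and the D-box TTATGTAA were in 0 of the 38 and in 7.15% and 0.938% of all windows.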

How the data were processed

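Per the file headers, the main deposited table pairs the mean bead intensity of every probe (45281 probes, linear scale, not normalised) with a detection p-value on each of 11 arrays. A second deposited table gives a normalised linear intensity and served only as an alternative. GenomeStudio is the tool named, per the submitters' processing notes; its version is not given in the sources used here. Columns were mapped to groups through sample names, with 0 columns of values left over.

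Here neqc of limma 3.58.1 (R 4.3.3, statmod 1.5.0) took the background from the detection p-values, corrected for it by normexp (offset 16), quantile-normalised the arrays and gave log2 values. The filter (detection p under 0.05, 3 arrays or more) kept 16978 probes, and the brightest probe stood for its symbol. Quantile normalisation gives every array the same distribution, so a shift shared by all genes cannot be seen. Group means were fitted by limma over the 11 arrays together, leaving 8 residual and 4.18 prior degrees of freedom; moderated p-values were two-sided and adjusted by Benjamini and Hochberg over 12512 genes. The fit was tested on simulated data with known changes. For a probe undetected throughout a group and detected throughout the other, a fold is a lower bound. For Mgst2 the same limit was used although its probe was detected on just 2 of the 3 control arrays.

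Chips were read from the column headers. Of 5 chips, 3 hold 6 h and control arrays, and 2 of these hold 12 h arrays too. The 12 h arrays 1 and 3 are each alone on a chip, without a control. The labels name separate mice, but not litters or days.

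The genes and lists were chosen with earlier results of these data known, so no list was tested. All 36 genes are accounted for. Array values are given by rule for the gene of each family of 3 or more with the largest change at 12 h, and for genes at least 0.8 apart from non-overlapping controls. They are also given for called list members. Array values of Ugt1a2, Ugt1a9, Ugt1a12, Ugt3a1, Gstp2, Sult1c2 and Sult2a2 were added after their values were seen. Of the list genes, Ugdh, Papss2, Gclc, Nfe2l2, Nr1i3 and Ahr were always named. All 49 symbols matched a RefSeq gene or synonym (GRCm38.p6). The build behind the probe design is not given in the sources used here, and probe sequences were not used.

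As alternatives the background correction was dropped, arrays were median-centred, and the second deposited table was used. The filter was dropped or tightened (detection p under 0.01 on every array), and probes were tested singly or averaged by gene. The fit was limited to 2 groups, weighted by array, given a trended robust variance, blocked by replicate number or by chip, given array brightness as a covariate, or run without each array in turn.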

Additional observations from a re-analysis of the deposited data

Results flagged for a closer look

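Of 72 groups of 4 arrays (36 genes at 6 h and at 12 h), 4 held an array far from the other 3, by a test that flags about 1 group in 20 by chance. Gsta4 read 11.33 on 6 h array 2, where the other 6 h arrays lay at 10.96. Gstk1 read 13.51 on the same array, against 13.36 to 13.37 on the others. Gstp2 read 7.81 on 12 h array 3, against 7.13 to 7.17 on the others, so its 12 h mean is raised by that array. Ugt2b36 read 13.54 on the same 12 h array, against 13.79 to 13.81 on the others. That array is alone on its chip, so mouse, chip and measurement noise cannot be told apart there.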

How the results depend on the processing

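Under 25 alternatives (14 other settings and 11 that leave out 1 array each) the count of called conjugation genes was 0 except in 3. A trended and robust variance called 1 gene at 6 h (Sult1a1), and a fit of only the compared groups called 1 at 12 h (Ugt1a1). Leaving out control array 1 called 1 at 12 h (Mgst2), a gene that passed the filter largely through control arrays. Leaving out arrays thus gave 0 to 1 at 12 h and 0 at 6 h and in 12 h against 6 h. Under the other settings 5 to 11 genes had an unadjusted p under 0.05 at 6 h, 3 to 15 at 12 h and 2 to 8 in 12 h against 6 h. Of 2583 values of single genes under alternatives, 136 changed sign, none of them past the threshold in either fit. The number of all genes called ran from 58 to 512 at 6 h, from 132 to 743 at 12 h and from 5 to 259 in 12 h against 6 h over the other settings, so the share of all genes called depends strongly on the setting. With the replicate block, 0 conjugation genes were called in each comparison. Same-numbered arrays of different groups correlated between -0.18 and 0.45 (10 pairs), and 3 of 11 arrays correlated best with their own number, so the numbers were not taken to pair the mice. With the chip as a fixed or random block 0 were called.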
